A study of Mus musculus with 9 samples.

Results

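The genes described here encode the proton pump of the lysosome and a chosen set of its membrane proteins, lumenal proteins and transcriptional regulators. They comprised every mouse symbol that begins with Atp6v or Atp6ap, 28 in all, and 24 further named genes, which made 52. Of the 52 genes, 50 had a probe whose accession matched a RefSeq gene, and 47 passed the signal filter and were tested. Across the array 22911 genes had such a probe and 16590 were tested. The pseudogenes Atp6v0c-ps1 and Atp6v0c-ps2 had no named probe. The probes of Atp6v1fnb, Atp6v1g3 and Atp6ap1l were not well above background on any array. A gene with several probes was read from the probe with the highest mean signal over the 9 arrays.

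RNA came from whole lungs of male C57BL/6J mice that were 12 weeks old at the start and were exposed for 6 months to 3.5% IQOS aerosol, to 3.5% cigarette smoke (CS) or to fresh air. IQOS is a heated tobacco product, which warms tobacco without burning it. Each group had 3 one-colour (Cy3) Agilent arrays, numbered after the replicate numbers in the labels. The labels do not say that each array stands for a separate animal, so what the p-values measure is only the spread among these samples, which may be technical.

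A lysosome digests what a cell takes up or recycles, and its enzymes need an acid lumen. The acid is made by the V-ATPase, a rotary pump whose cytosolic V1 sector splits ATP and whose membrane V0 sector carries protons. Many lysosome genes are switched on together by the related transcription factors TFEB, TFE3 and MITF, and in lung the alveolar macrophage is a cell type rich in lysosomes.

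Signal is given as log2 of the background-subtracted spot signal minus log2 of that array's 75th percentile, here called the scaled log2 signal, so that 0 is the 75th percentile. The 75th percentile lay between 973.3 and 1098 units, and each array had between 64.3% and 68.8% of its probes well above background. All 7 of 7 lung tissue markers were well above background on every array. Arrays correlated at 0.991 to 0.994 with arrays of their own group and at 0.984 to 0.989 with the others. The IQOS arrays filled a slide of their own, so the effects of slide and of IQOS aerosol cannot be told apart, while the CS and air arrays shared the other slide. The CS arrays and air 3 lay in array row 2, and the IQOS arrays, air 1 and air 2 in row 1. All IQOS arrays thus differed from all CS arrays in row as well as in slide.

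Cd68, Atp6v0d2 and 13 further lysosome genes had higher signal in CS lungs than in air lungs, while 32 of the 47 did not pass. Of the 47 genes tested, 15 rose (31.9%) and 0 fell in CS lungs against air lungs at a limma adjusted p under 0.05, beside 5.59% that rose and 6.12% that fell among all genes tested. The largest rises were of Cd68, a membrane glycoprotein abundant in macrophage lysosomes, at 2.88-fold, and of Atp6v0d2, a pump subunit found in macrophages and osteoclasts, at 2.80-fold. The other 13 genes rose by log2 changes of 0.23 to 0.47. The median change of the 47 genes was 0.17, beside -0.02 over all genes tested.

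At an unadjusted p under 0.05 the CS against air counts were 25 higher and 0 lower, beside 13.9% and 17.3% of all genes. All 3 CS arrays lay above all 3 air arrays for 29 of the 47 genes (17.2% of all genes), and they lay below for 0 (21% of all genes). The change was positive for 40 and negative for 7, beside 47% positive among all genes. The number of calls depended on single arrays: it was 3 without air 1, 7 without air 2, 8 without air 3, 4 without CS 2 and 6 without CS 3. With array row as a covariate it was 2, Cd68 and Atp6v0d2, at a median change of 0.17.

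Lungs exposed to IQOS aerosol had lower signal than CS lungs in 17 of the 47 genes (36.2%) and higher signal in 0, beside 5.17% lower and 4.94% higher among all genes. Atp6v0d2 was 2.94-fold lower in IQOS lungs, Cd68 was 2.48-fold lower, and the other 15 genes had log2 changes between -0.42 and -0.22. This contrast is also the test of the difference between the effects of the exposures. All IQOS arrays differed from all CS arrays in slide and in array row too, so exposure, slide and row cannot be told apart within it. The contrast shares the CS arrays with the CS against air contrast, and 13 genes passed in both. Atp6v0b and Man2b1 passed only against air, and Atp6v0a1, Atp6v1a, Lamp2 and Lipa passed only in IQOS against CS.

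The median change in IQOS against CS was -0.17 for the 47 genes and 0.02 for all genes. At an unadjusted p under 0.05, 27 genes were lower and 2 higher, beside 13.6% and 15.6% of all genes. All IQOS arrays lay below all CS arrays for 31 genes and above them for 3, beside 16.8% and 18.5%. The change was positive for 10 and negative for 37, beside 53.2% positive among all genes. The count of 17 was 7 without air 1, 11 without air 3, 4 without CS 2, 3 without CS 3, 4 without IQOS 1 and 6 without either IQOS 2 or IQOS 3, and it was 0 with array row as a covariate, where the median change was -0.20, Atp6v0d2 changed by -1.32 and Cd68 by -0.98 (adjusted p = 0.0893 and 0.0888). With normexp background correction 20 genes were lower and 1 higher, and with an intensity trend and robust estimation 18 were lower and 1 higher. The gene higher in both was Gla, alpha-galactosidase (adjusted p = 0.0354 and 0.0427).

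Between IQOS lungs and air lungs 0 of the 47 lysosome genes passed limma's adjusted p of 0.05, beside 1.99% that rose and 0.886% that fell among all genes. At an unadjusted p under 0.05, 4 genes were higher and 2 lower, against 9.86% and 10.5% of all genes. The median change was 0.02, with 24 positive and 23 negative values and a range from -0.28 to 0.28. The median half-width of the 95% confidence interval was 0.15 on the log2 scale, a size that matches an unadjusted p of 0.05. A call needed more. The smallest change among these genes that passed in any contrast was -0.22. Here -0.28 (Lipa) and 0.27 (Man2b1) did not pass, so changes of that size could be missed with 3 arrays a group. Other settings of the same limma fit called 2 genes with normexp background correction (Gusb and Man2b1, higher), 1 with quantile normalization (Sgsh, higher) and 3 with an intensity trend and robust estimation (Man2b1 and Sgsh higher, Lipa lower).

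**Figure D1:**
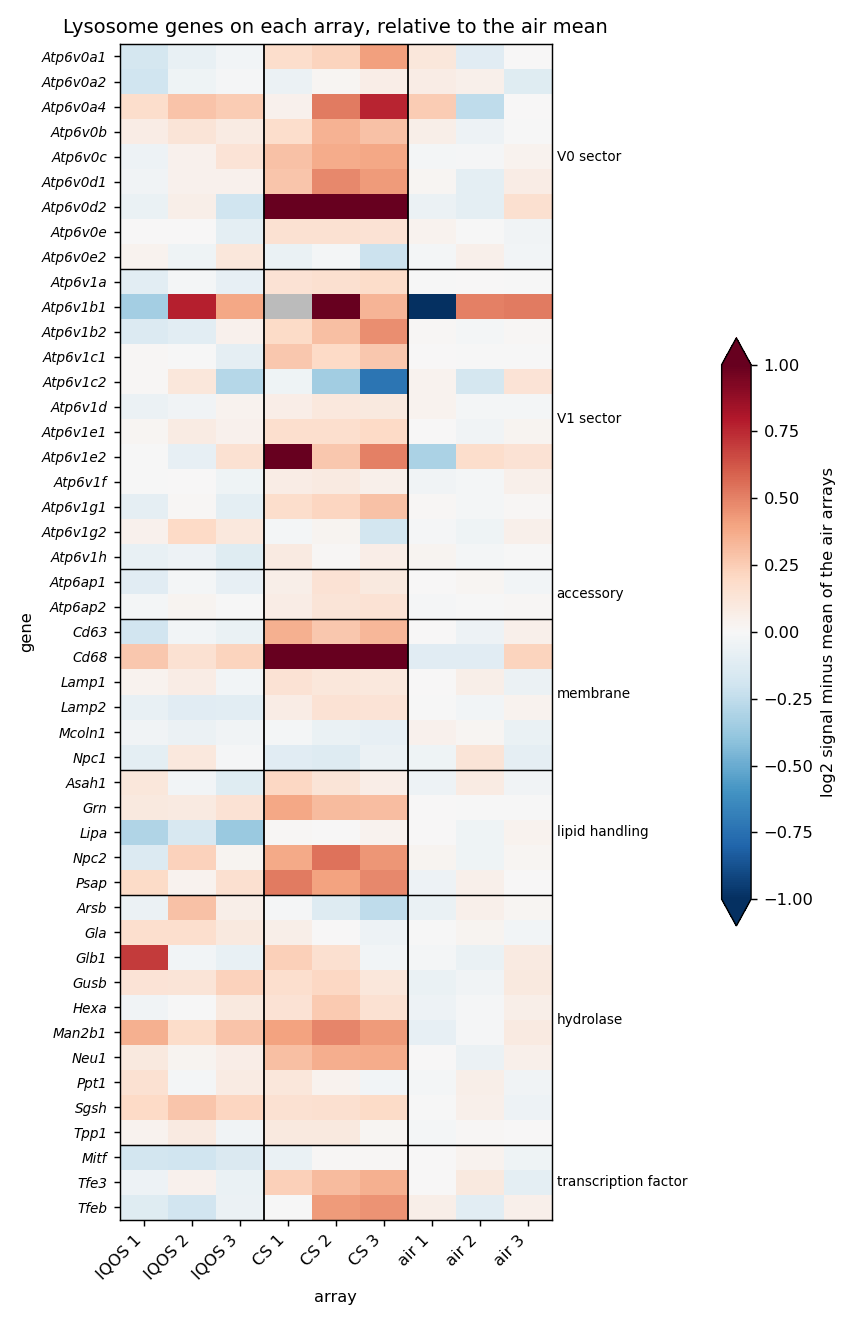
Scaled log2 signal of the 47 tested lysosome genes on each array minus the mean of the air arrays, as colour from -1 to 1 (log2 units, values beyond are drawn at the end colour), with genes as rows grouped by role and arrays as columns in the order IQOS, CS, air; grey marks the 1 spot left out. The 3 CS columns are darkest red for Atp6v0d2 and Cd68, and 29 genes have all 3 CS arrays above all 3 air arrays.

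**Figure D2:**
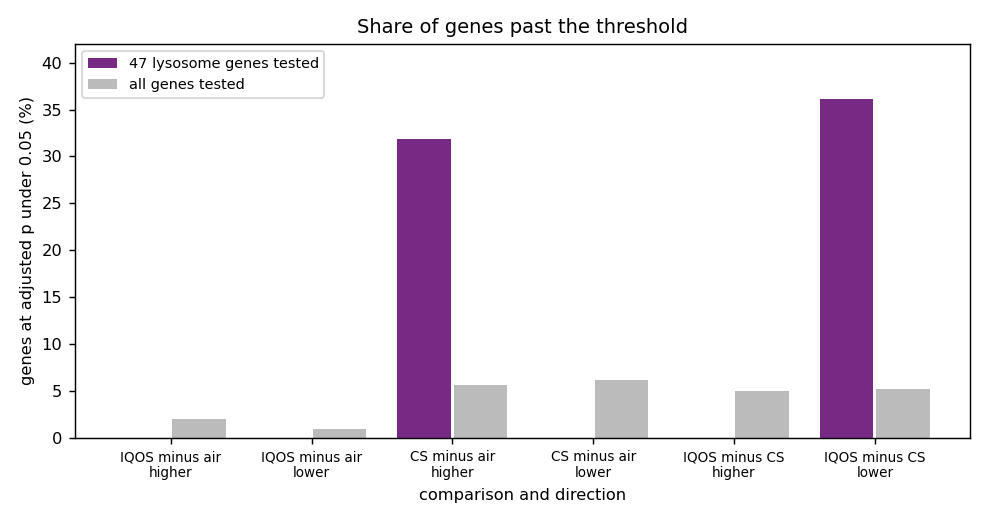
Share of genes (%) past an adjusted p of 0.05, by comparison and direction, for the 47 lysosome genes (purple) and all 16590 genes tested (grey). The lysosome genes reach 31.9% for higher in CS against air and 36.2% for lower in IQOS against CS, beside 5.59% and 5.17%, and 0 in the other directions.

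Whole lung is a mixture of cells, so more or fewer cells of a type and more or less RNA per cell cannot be told apart. The summed signal of the macrophage marker list, with all 20 genes above background, was highest on the CS arrays. It spanned 290.5 to 318.1 (IQOS), 430.9 to 516.6 (CS) and 260.2 to 291.9 (air), in multiples of each array's 75th percentile. Bright genes weigh most in this sum. The brightest was Chil3, named after its value was seen, with mean scaled log2 signals of 6.54 in IQOS, 7.67 in CS and 6.31 in air. Of the 20 genes, 9 rose and 0 fell in CS against air, beside 5.59% and 6.12% of all genes. At an unadjusted p under 0.05, 12 were higher and 1 lower, beside 13.9% and 17.3%. In IQOS against CS, 9 of the 20 were lower and 1 (Itgam, named after its value was seen) higher, beside 5.17% and 4.94%. The 4 with the smallest p were Ctsk, a lysosomal protease, at a log2 change of 2.12 in CS against air, Gpnmb at 2.16, Itgax at 1.07 and Trem2 at 1.93. Markers that did not pass, named after their values were seen, included Adgre1 at 0.29, Csf1r at 0.06, Mertk at -0.04 and Siglecf at -0.09. The change in CS against air was negative for 5 of the 20 genes. The lowest was that of Fabp4, also named after its value was seen, at -0.92 (adjusted p = 0.137). In IQOS against air 0 of the 20 passed. At an unadjusted p under 0.05, 2 were higher and 1 lower, beside 9.86% and 10.5% of all genes. The part of this list in the change of any lysosome gene was not tested.

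The promoters of 41 of the 50 genes with a probe were found in the RefSeq promoter table (build GRCm38.p6, 250 bases before to 50 bases after the transcription start, read along the gene's strand). They were searched on both strands for the motif CACGTG, the core bound by TFEB, TFE3 and MITF, and for TCACGTG, which contains it. Both motifs were found in the same 9 of the 41 promoters (22%), beside 8.09% and 4.29% of 27025 genes. The 9 genes were Atp6v0b, Atp6v0d1, Atp6v0e, Atp6v1a, Gla, Glb1, Lamp1, Mcoln1 and Sgsh. The core occurred in 2 of 11 promoters of the genes that rose in CS lungs (18.2%) and in 7 of 28 of the other genes tested (25%). A match describes the letters of the window and is not evidence of binding.

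These 4 promoters are shown because they set genes that rose in CS lungs, with and without the core, beside a gene with repeated cores that did not pass. Capitals mark CACGTG. Atp6v0b lies at chr4:117887280-117887579 on the minus strand, with cores that begin 36 and 18 bases before the start. Atp6v0d1 lies at chr8:105566015-105566314 on the minus strand, with 1 core that begins 3 bases before it. Cd68, which had the largest fold among the genes that passed in CS against air, lies at chr11:69666121-69666420 on the minus strand and has no core in the window. Lamp1 lies at chr8:13158911-13159210 on the plus strand and has 4 cores, which begin 61, 45, 28 and 15 bases before the start.
Atp6v0b: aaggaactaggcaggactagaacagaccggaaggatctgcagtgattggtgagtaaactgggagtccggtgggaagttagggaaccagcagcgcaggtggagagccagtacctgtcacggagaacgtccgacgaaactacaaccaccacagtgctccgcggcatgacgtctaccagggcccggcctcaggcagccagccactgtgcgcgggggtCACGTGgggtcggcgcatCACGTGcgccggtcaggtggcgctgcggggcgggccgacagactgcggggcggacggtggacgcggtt
Atp6v0d1: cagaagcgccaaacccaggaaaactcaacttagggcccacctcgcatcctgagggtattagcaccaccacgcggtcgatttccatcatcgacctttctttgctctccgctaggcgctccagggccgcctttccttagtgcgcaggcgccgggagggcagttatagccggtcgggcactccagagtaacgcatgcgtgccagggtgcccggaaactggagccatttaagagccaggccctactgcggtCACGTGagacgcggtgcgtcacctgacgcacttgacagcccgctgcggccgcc
Cd68: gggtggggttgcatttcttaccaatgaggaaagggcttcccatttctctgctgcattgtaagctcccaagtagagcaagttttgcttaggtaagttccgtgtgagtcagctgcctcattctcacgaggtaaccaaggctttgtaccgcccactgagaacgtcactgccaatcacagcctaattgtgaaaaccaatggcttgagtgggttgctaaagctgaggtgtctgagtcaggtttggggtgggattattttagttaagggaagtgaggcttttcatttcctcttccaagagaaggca
Lamp1: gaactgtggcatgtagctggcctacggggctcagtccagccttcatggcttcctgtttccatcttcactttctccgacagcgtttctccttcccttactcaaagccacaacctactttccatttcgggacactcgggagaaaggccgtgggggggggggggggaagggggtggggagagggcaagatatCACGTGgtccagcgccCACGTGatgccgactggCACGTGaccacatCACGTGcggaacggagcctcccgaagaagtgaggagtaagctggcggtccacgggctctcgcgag

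In the V0 sector, which spans the membrane, 4 of 9 genes tested rose in CS against air, beside 5.59% of all genes. In IQOS against CS 4 were lower, beside 5.17%. Atp6v0d2 encodes the tissue-restricted isoform of subunit d, which joins V0 to the central stalk. Its scaled log2 signal was 0.14, 0.27 and 0.01 on the IQOS arrays, 1.83, 1.46 and 1.79 on the CS arrays, and 0.15, 0.11 and 0.37 on the air arrays. The CS arrays stood more than 1 log2 unit above every other array, while the IQOS and air arrays overlapped. The log2 change was 1.49 ± 0.12 (SE, adjusted p = 0.00223) in CS against air and -1.56 ± 0.12 (adjusted p = 0.00156) in IQOS against CS. In IQOS against air it was -0.07, with a 95% interval from -0.35 to 0.21. A second probe of Atp6v0d2 changed by 1.61 in CS against air and by -1.58 in IQOS against CS, both past the threshold.

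Atp6v0d1 encodes the isoform of subunit d that most cells carry. It read 2.41, 2.48 and 2.48 on the IQOS arrays, 2.72, 2.92 and 2.86 on the CS arrays, and 2.46, 2.34 and 2.52 on the air arrays. Every CS array was above every IQOS and air array, by a smaller margin than for Atp6v0d2. The log2 change of Atp6v0d1 was 0.39 ± 0.08 (adjusted p = 0.0207) in CS against air, which is 1.31-fold, and -0.38 ± 0.08 (adjusted p = 0.023) in IQOS against CS.

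The membrane ring that carries protons is built from proteolipids. Atp6v0c, which encodes most of the ring, read 3.74, 3.84 and 3.93 on the IQOS arrays, 4.09, 4.16 and 4.17 on the CS arrays, and 3.77, 3.78 and 3.82 on the air arrays. The CS arrays were the 3 highest. Atp6v0c rose by 0.35 ± 0.07 in CS against air (adjusted p = 0.0192) and was lower by a log2 change of -0.31 ± 0.07 in IQOS against CS (adjusted p = 0.0276). Its second probe passed in both contrasts as well, at 0.28 and -0.34. Its processed pseudogenes were not measured by a named probe, and whether they add signal to its probes was not tested.

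Atp6v0b, the other proteolipid of the ring, read 2.75, 2.80 and 2.76 on the IQOS arrays, 2.85, 3.02 and 2.97 on the CS arrays, and 2.73, 2.62 and 2.67 on the air arrays. The IQOS arrays lay between the other groups without overlap. Atp6v0b rose by 0.27 ± 0.06 in CS against air (adjusted p = 0.0379), and its change of -0.18 in IQOS against CS did not pass (adjusted p = 0.121). In IQOS against air it was 0.10 (adjusted p = 0.418).

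Atp6v0a1 encodes an isoform of subunit a, which lines the proton path. It read 3.22, 3.32 and 3.37 on the IQOS arrays, 3.57, 3.62 and 3.80 on the CS arrays, and 3.51, 3.28 and 3.40 on the air arrays. The CS arrays were again the highest, and the IQOS and air arrays overlapped. Its change was -0.36 ± 0.09 in IQOS against CS (adjusted p = 0.0421) and 0.27 ± 0.09 in CS against air, which did not pass (adjusted p = 0.0887). A second probe of Atp6v0a1 had -0.30 in IQOS against CS and did not pass (adjusted p = 0.0839). The isoforms Atp6v0a2 and Atp6v0a4, the second known from kidney and epididymis, had CS against air changes of 0.01 and 0.44, and neither passed (adjusted p = 0.963 and 0.169). Tcirg1, which encodes a further isoform of subunit a known from osteoclasts, had a change of 0.24 in CS against air (adjusted p = 0.056) and was lower in IQOS against CS at -0.35 (adjusted p = 0.0188).

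Among the V0 genes only Atp6v0d2 kept its calls when each array was left out in turn. The rises of Atp6v0d1 and Atp6v0c in CS lungs were lost when air 1, air 2, CS 2 or CS 3 was left out, with adjusted p reaching 0.0736 and 0.0768. The rise of Atp6v0b was kept only when CS 1 was the array left out, and its adjusted p otherwise reached 0.12. The differences between IQOS and CS were lost for Atp6v0d1 when CS 2, CS 3 or any IQOS array was left out (adjusted p reaching 0.0779). For Atp6v0c they were lost when air 1, CS 2, CS 3, IQOS 1 or IQOS 2 was left out (reaching 0.0883), and for Atp6v0a1 in every case except air 2 and CS 1 (reaching 0.116). Atp6v0a4 passed in CS against air only when CS 1 was left out, at 0.64 (adjusted p = 0.0487).

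In the V1 sector, which binds and splits ATP, 3 of 12 genes tested rose in CS against air, beside 5.59% of all genes. In IQOS against CS 4 were lower, beside 5.17%. Atp6v1b2 encodes the widespread isoform of the ATP-binding subunit B. It read 3.41, 3.44 and 3.59 on the IQOS arrays, 3.74, 3.85 and 4.01 on the CS arrays, and 3.56, 3.53 and 3.56 on the air arrays. The CS arrays were the 3 highest, and IQOS 1 and IQOS 2 were the 2 lowest. It rose by 0.32 ± 0.08 in CS against air (adjusted p = 0.0475) and was lower at -0.39 ± 0.08 in IQOS against CS (adjusted p = 0.0279). Its second probe had changes of 0.24 and -0.15 and passed in neither contrast (adjusted p = 0.181 and 0.396). The mean of both probes did not pass either, at 0.28 and -0.27 (adjusted p = 0.0811 and 0.0918).

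Atp6v1c1, a subunit that takes part in joining the sectors, read 0.60, 0.59 and 0.50 on the IQOS arrays, 0.86, 0.79 and 0.86 on the CS arrays, and 0.59 on each of the air arrays. The air arrays were almost identical, and all CS arrays were above them. It rose by 0.24 ± 0.05 in CS against air (adjusted p = 0.0325) and changed by -0.27 ± 0.05 in IQOS against CS (adjusted p = 0.0232). Atp6v1g1, a subunit of the peripheral stalk, read 5.47, 5.58 and 5.46 on the IQOS arrays, 5.74, 5.77 and 5.85 on the CS arrays, and 5.57, 5.54 and 5.57 on the air arrays. Its CS arrays were also the 3 highest. The rise was 0.23 ± 0.06 in CS against air, just inside the threshold (adjusted p = 0.0499), and the change was -0.29 ± 0.06 in IQOS against CS (adjusted p = 0.0261).

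Atp6v1a encodes the catalytic subunit A. It read 2.60, 2.69 and 2.62 on the IQOS arrays, 2.85, 2.86 and 2.89 on the CS arrays, and 2.70, 2.71 and 2.70 on the air arrays. The air arrays fell between the others with no overlap. Its change was -0.23 ± 0.05 in IQOS against CS (adjusted p = 0.0318), while 0.16 ± 0.05 in CS against air did not pass (adjusted p = 0.0805) and neither did -0.07 in IQOS against air (adjusted p = 0.473).

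Isoforms of V1 subunits that are restricted to certain epithelia or to testis did not pass. Atp6v1c2, the alternative isoform of subunit C, had a change of -0.37 ± 0.18 in CS against air (adjusted p = 0.218). Atp6v1b1 and Atp6v1e2 were dim and scattered. Atp6v1e2, known from testis, read -1.57 on CS 1 and between -5.28 and -4.45 on the other 8 arrays. Its change of 1.39 ± 0.72 in CS against air did not pass (adjusted p = 0.243). For Atp6v1b1, known from kidney and airway, the spot of CS 1 was left out as an outlier, and the change of 1.66 ± 0.83 rested on 2 CS arrays at -2.18 and -4.81 (adjusted p = 0.235). The widespread stalk subunit Atp6v1e1 came closest to the threshold among the genes that did not pass in CS against air, at 0.18 ± 0.05 (adjusted p = 0.0613).

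Every V1 call was lost without some single array. The rise of Atp6v1g1 in CS lungs was lost whichever of the 9 arrays was left out (adjusted p reaching 0.134), and that of Atp6v1b2 in every case except CS 1 (reaching 0.131). The rise of Atp6v1c1 was lost whenever an air or CS array was left out (reaching 0.106). The difference between IQOS and CS was lost for Atp6v1a in every case except air 2 (reaching 0.0927), and for Atp6v1c1 when CS 2, CS 3 or any IQOS array was left out (reaching 0.0678). For Atp6v1b2 and Atp6v1g1 it was lost when air 1, CS 2, CS 3 or IQOS 1 was left out, and also IQOS 2 for Atp6v1b2 (reaching 0.0842) and IQOS 3 for Atp6v1g1 (reaching 0.0783). Of the accessory genes, Atp6ap1 and Atp6ap2, which help assemble the pump, had changes of 0.10 and 0.12 in CS against air and -0.17 and -0.12 in IQOS against CS, and 0 of 2 passed limma's adjusted threshold in any contrast. At an unadjusted p under 0.05, 1 was higher in CS against air (13.9% of all genes) and 2 lower in IQOS against CS (13.6% of all genes).

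**Figure D3:**
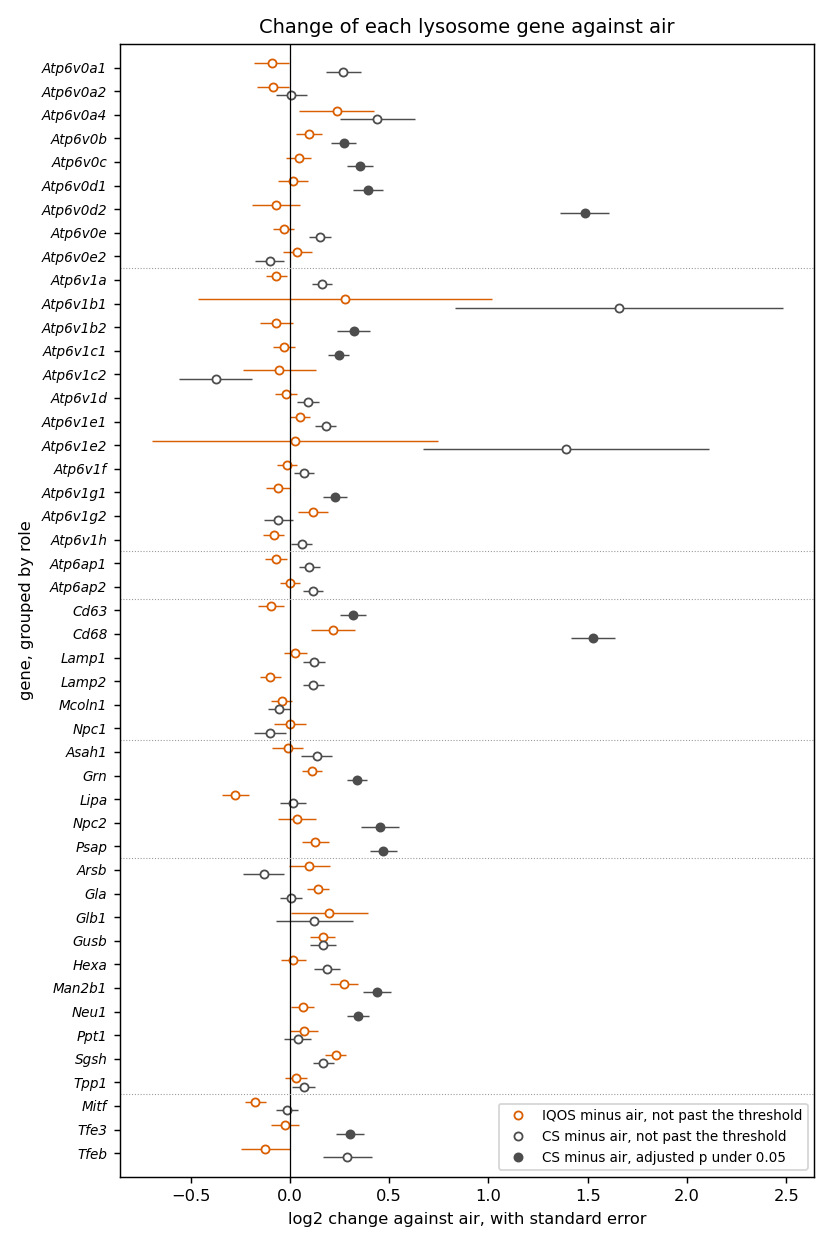
Log2 change against air (points) with its standard error (lines) for the 47 tested lysosome genes, ordered by role, for IQOS (orange) and CS (grey); filled points passed an adjusted p of 0.05. The 15 filled points are all CS and all to the right of 0, led by Cd68 at 1.53 and Atp6v0d2 at 1.49, and no orange point is filled.

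Of 6 membrane genes, 2 rose in CS against air and 3 were lower in IQOS against CS, beside 5.59% and 5.17% of all genes. Cd68 read 2.63, 2.52 and 2.58 on the IQOS arrays, 4.03, 3.74 and 3.90 on the CS arrays, and 2.25, 2.25 and 2.58 on the air arrays. The CS arrays stood more than 1 log2 unit above the other 6, and air 3 lay among the IQOS arrays. The change was 1.53 ± 0.11 in CS against air (adjusted p = 0.00174) and -1.31 ± 0.11 in IQOS against CS (adjusted p = 0.00178). In IQOS against air it was 0.22 with a 95% interval from -0.04 to 0.47 (adjusted p = 0.303). A second probe gave 1.60 and -1.39. Cd68 is itself used as a macrophage marker, and the macrophage list whose sums are given above does not include it.

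Cd63, a tetraspanin of late endosomes and lysosomes, read 5.69, 5.86 and 5.81 on the IQOS arrays, 6.23, 6.15 and 6.21 on the CS arrays, and 5.88, 5.83 and 5.93 on the air arrays. The CS arrays were the highest, and the other groups overlapped. Its change was 0.32 ± 0.06 in CS against air (adjusted p = 0.0254) and -0.41 ± 0.06 in IQOS against CS (adjusted p = 0.0113). The IQOS against CS call was kept without each array in turn, whereas the CS against air call was lost whenever an air or CS array was left out (adjusted p reaching 0.088).

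Lamp1 and Lamp2 are the major glycoproteins of the lysosome membrane. Lamp1 read 7.02, 7.05 and 6.95 on the IQOS arrays, 7.13, 7.10 and 7.09 on the CS arrays, and 6.99, 7.04 and 6.92 on the air arrays. All its CS arrays were above the rest, but the groups were close together. The change of 0.12 ± 0.06 in CS against air did not pass (adjusted p = 0.203), and nor did -0.09 in IQOS against CS (adjusted p = 0.321). A second probe of Lamp1 had 0.17 in CS against air and -0.03 in IQOS against CS (adjusted p = 0.0909 and 0.764). In IQOS against air it had 0.14 (adjusted p = 0.199), where the first probe had 0.03 (adjusted p = 0.817). Lamp2 read 3.73, 3.69 and 3.69 on the IQOS arrays, 3.88, 3.95 and 3.94 on the CS arrays, and 3.80, 3.77 and 3.84 on the air arrays. Here the IQOS arrays were the 3 lowest and the CS arrays the 3 highest. Lamp2 was lower at -0.22 ± 0.05 in IQOS against CS (adjusted p = 0.0393), with 0.12 in CS against air (adjusted p = 0.174) and -0.10 in IQOS against air (adjusted p = 0.312) that did not pass. The second probe of Lamp2 had a change of -0.13 in IQOS against CS (adjusted p = 0.288), and the mean of both did not pass, at -0.17 (adjusted p = 0.0917). The Lamp2 call was lost in every case except CS 1 when single arrays were left out (adjusted p reaching 0.124). Mcoln1, a calcium channel, and Npc1, which exports cholesterol, were slightly lower in CS against air, at -0.06 and -0.10, and did not pass.

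Among the 5 genes for lipid handling in the lumen, 3 rose in CS against air, beside 5.59% of all genes. In IQOS against CS 4 were lower, beside 5.17%. Psap encodes the precursor of the saposins, small proteins that present sphingolipids to their enzymes. It read 4.36, 4.20 and 4.33 on the IQOS arrays, 4.69, 4.57 and 4.65 on the CS arrays, and 4.12, 4.22 and 4.17 on the air arrays. The CS arrays were the 3 highest and the other groups overlapped through IQOS 2 and air 2. Psap rose by 0.47 ± 0.07 in CS against air, 1.39-fold (adjusted p = 0.0091), a call kept without each array in turn. It was lower at -0.34 ± 0.07 in IQOS against CS (adjusted p = 0.0219), a call lost when CS 3 or IQOS 2 was left out (adjusted p reaching 0.0649).

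Npc2, which carries cholesterol out of the lumen together with NPC1, read 5.18, 5.54 and 5.34 on the IQOS arrays, 5.70, 5.86 and 5.76 on the CS arrays, and 5.34, 5.27 and 5.34 on the air arrays. The IQOS arrays were the most scattered and none reached a CS array. Npc2 rose by 0.45 ± 0.10 in CS against air (adjusted p = 0.0278) and was lower at -0.42 ± 0.10 in IQOS against CS (adjusted p = 0.0351). Grn encodes progranulin, a secreted and lysosomal protein. It read 5.49, 5.49 and 5.55 on the IQOS arrays, 5.79, 5.72 and 5.71 on the CS arrays, and 5.40 on each of the air arrays. The groups did not overlap, with IQOS in the middle. Grn rose by 0.34 ± 0.05 in CS against air (adjusted p = 0.0115) and was lower at -0.23 ± 0.05 in IQOS against CS (adjusted p = 0.0349). Of its other probes, one passed in both contrasts at 0.25 and -0.26, and one went the other way in IQOS against CS at 0.38 without passing (adjusted p = 0.388). With the mean of its probes, Grn passed in neither contrast (0.35 with adjusted p = 0.0669 in CS against air, and -0.04 with adjusted p = 0.849 in IQOS against CS).

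Lipa, the acid lipase that frees cholesterol and fatty acids, read 0.57, 0.71 and 0.50 on the IQOS arrays, 0.88, 0.87 and 0.90 on the CS arrays, and 0.87, 0.82 and 0.90 on the air arrays. The IQOS arrays were the 3 lowest, and the CS and air arrays overlapped. Lipa was lower at -0.29 ± 0.07 in IQOS against CS (adjusted p = 0.0356), while -0.28 ± 0.07 in IQOS against air narrowly did not pass (adjusted p = 0.0651) and 0.01 in CS against air did not (adjusted p = 0.908). For these values, too, the slide of the IQOS arrays and the exposure cannot be told apart. Asah1, acid ceramidase, passed in no contrast, with 0.13 in CS against air and -0.15 in IQOS against CS.

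Leaving out 1 array ended several of these calls. The rise of Npc2 in CS lungs was lost when any air array, CS 2 or CS 3 was left out (adjusted p reaching 0.0925), and that of Grn when air 1 was (0.0525). The difference between IQOS and CS was lost for Grn whichever array was left out (reaching 0.0974). For Npc2 it was lost in every case except IQOS 2 (reaching 0.111), and for Lipa in every case except air 2 and IQOS 2 (reaching 0.0972).

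Of 10 hydrolases, 2 rose in CS against air and 1 was lower in IQOS against CS, beside 5.59% and 5.17% of all genes. Man2b1, the lysosomal alpha-mannosidase, read 2.95, 2.78 and 2.88 on the IQOS arrays, 3.00, 3.08 and 3.02 on the CS arrays, and 2.52, 2.58 and 2.69 on the air arrays. All IQOS arrays and all CS arrays were above all air arrays. It rose by 0.44 ± 0.07 in CS against air (adjusted p = 0.013), and 0.27 ± 0.07 in IQOS against air (adjusted p = 0.0753) and -0.17 in IQOS against CS (adjusted p = 0.172) did not pass. Neu1, the sialidase, read 2.87, 2.80 and 2.84 on the IQOS arrays, 3.07, 3.13 and 3.15 on the CS arrays, and 2.78, 2.71 and 2.83 on the air arrays. Its CS arrays were the 3 highest. Neu1 rose by 0.34 ± 0.06 in CS against air (adjusted p = 0.0141) and was lower at -0.28 ± 0.06 in IQOS against CS (adjusted p = 0.0246). Both rises were lost when air 1 or CS 2 was left out (adjusted p reaching 0.0576 for Man2b1 and 0.0593 for Neu1). The Neu1 difference between IQOS and CS was lost when CS 2, CS 3 or any IQOS array was left out (reaching 0.0817).

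In IQOS against air the changes of all 10 hydrolases were positive, with a median of 0.12 and a range from 0.02 to 0.27, beside 47.3% positive among all genes. None passed the adjusted threshold, and 4 were higher at an unadjusted p under 0.05 (9.86% of all genes). For 4 of 10 all IQOS arrays lay above all air arrays (13% of all genes). The slide of the IQOS arrays and the exposure cannot be told apart here either. Sgsh, which trims sulfate from heparan sulfate, had the smallest adjusted p at 0.0607, with a change of 0.23 ± 0.05. Its CS against air change was 0.17 (adjusted p = 0.0861). Gusb, beta-glucuronidase, had nearly equal changes of 0.16 in IQOS against air and 0.17 in CS against air (adjusted p = 0.196 and 0.143). Gla, alpha-galactosidase, had 0.14 in IQOS against air and 0.00 in CS against air (adjusted p = 0.185 and 0.974). In Glb1, beta-galactosidase, IQOS 1 read 2.19 and the other 8 arrays between 1.41 and 1.73. IQOS 2 and IQOS 3, at 1.46 and 1.41, were below the air mean of 1.49. The positive change of this Glb1 probe, 0.20 ± 0.19 in IQOS against air, thus rested on IQOS 1. A second, dimmer probe of Glb1 changed by 0.24 ± 0.06 in that contrast and did not pass (adjusted p = 0.0796). Hexa, Arsb, Ppt1 and Tpp1 passed in no contrast. Dimmer probes of Ppt1 had 0.26 and 0.22 in CS against air and did not pass (adjusted p = 0.0779 and 0.144), beside 0.04 for its brightest probe.

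Of the 3 transcription factors, 1 rose in CS against air, beside 5.59% of all genes. Tfe3 read 3.43, 3.53 and 3.41 on the IQOS arrays, 3.72, 3.79 and 3.84 on the CS arrays, and 3.48, 3.58 and 3.38 on the air arrays. Every CS array was above every other array. Tfe3 rose by 0.30 ± 0.07 in CS against air (adjusted p = 0.0371) and was lower at -0.33 ± 0.07 in IQOS against CS (adjusted p = 0.0293). The rise was lost when air 1, air 3, CS 2, CS 3, IQOS 1 or IQOS 3 was left out (adjusted p reaching 0.115). The difference between IQOS and CS was lost when air 1, CS 2, CS 3 or any IQOS array was left out (reaching 0.0885).

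Tfeb read -1.07, -1.14 and -1.0 on the IQOS arrays, -0.95, -0.52 and -0.50 on the CS arrays, and -0.89, -1.05 and -0.89 on the air arrays. CS 2 and CS 3 were high, while CS 1 lay among the air arrays. The change of 0.29 ± 0.12 in CS against air did not pass (adjusted p = 0.167), and nor did -0.41 ± 0.12 in IQOS against CS (adjusted p = 0.0737). With CS 1 left out both passed, at 0.44 (adjusted p = 0.0288) and -0.56 (adjusted p = 0.0152). The 4 probes of Tfeb had CS against air changes of 0.29, 0.14, 0.34 and -0.11, of which the third passed (adjusted p = 0.0465), so they disagreed in sign. In IQOS against CS the 4 probes had -0.41, 0.17, -0.21 and -0.17. In IQOS against air they had -0.12, 0.30, 0.13 and -0.28. None passed in either of these contrasts, and the signs disagreed in both.

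Mitf, also the melanocyte regulator, read 1.26, 1.25 and 1.30 on the IQOS arrays, 1.38, 1.45 and 1.46 on the CS arrays, and 1.45, 1.48 and 1.40 on the air arrays. The IQOS arrays were the 3 lowest, and the CS and air arrays overlapped. The changes were -0.17 ± 0.05 in IQOS against air (adjusted p = 0.116), -0.16 ± 0.05 in IQOS against CS (adjusted p = 0.102) and -0.02 in CS against air (adjusted p = 0.882), and none passed. Its other 2 probes were also lower in IQOS against air, at -0.17 and -0.12.

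**Figure D4:**
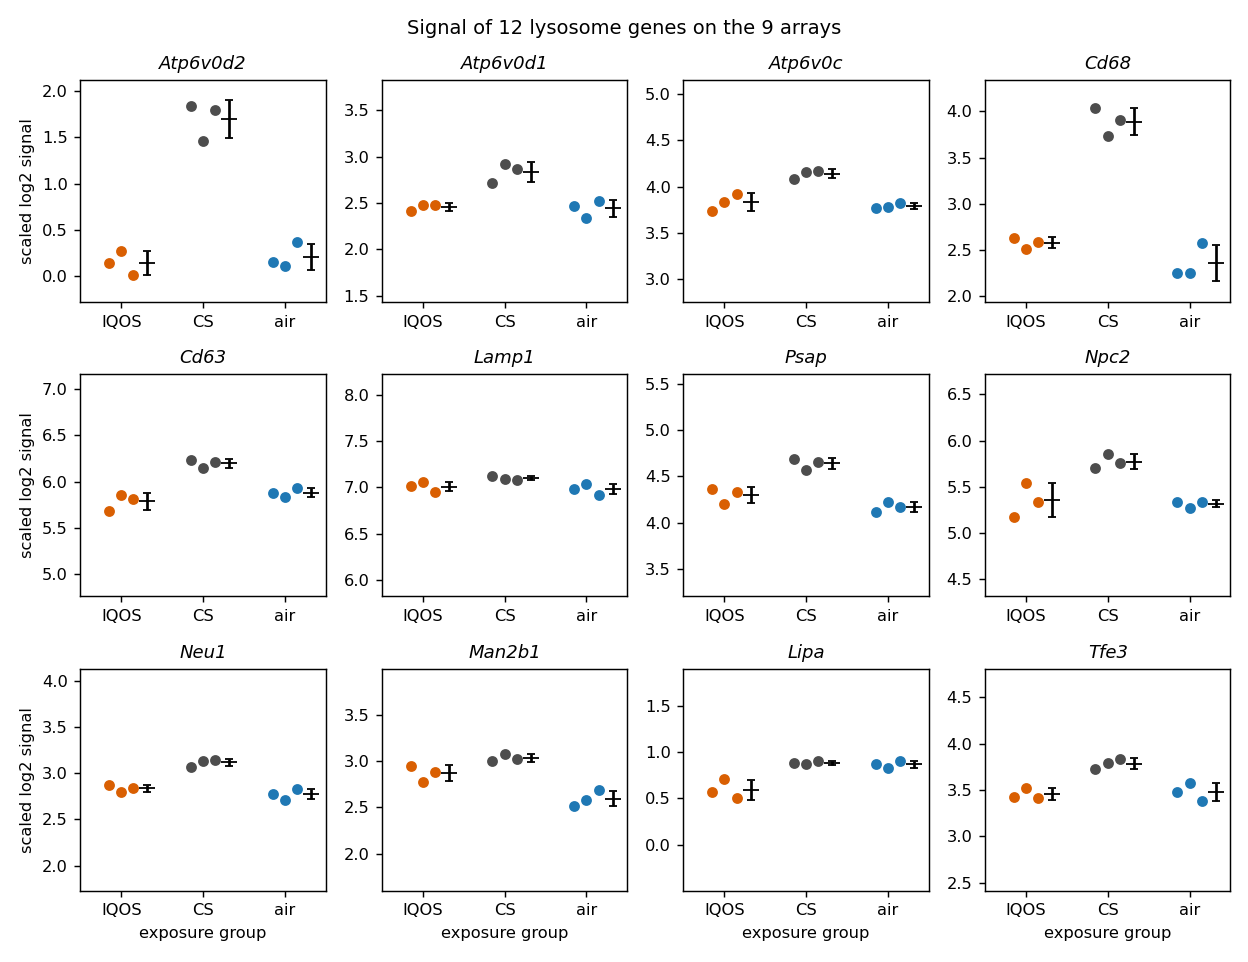
Scaled log2 signal (vertical axis, each panel with its own position and an equal span) of 12 lysosome genes on the 9 arrays, with IQOS, CS and air from left to right; points are arrays and the bar beside them is the mean ± SD of 3. The CS points of Atp6v0d2 (1.46 to 1.83) and Cd68 (3.74 to 4.03) are clear of the other groups, and the IQOS points of Lipa (0.50 to 0.71) lie below both.

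Another 23 probes covered 18 of the 47 genes. Their changes had the same sign as the brightest probe for 21 of 23 in CS against air, 18 of 23 in IQOS against CS and 14 of 23 in IQOS against air. Of the probes that belonged to genes called in CS against air, 6 of 6 had the same sign and 4 also passed. For IQOS against CS the counts were 7 of 8 and 4, the exception being a probe of Grn.

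Other lysosome genes were read from further lists. Of 90 genes in 5 further lists, 11 rose (12.2%) and 2 fell (2.22%) in CS against air, beside 5.59% and 6.12% of all genes. In IQOS against CS 4 were higher (4.44%) and 7 lower (7.78%), beside 4.94% and 5.17% of all genes. Against air 0 passed for IQOS in limma's fit, and at an unadjusted p under 0.05 10 were higher (11.1%) and 6 lower (6.67%), beside 9.86% and 10.5% of all genes. Their median changes were 0.04 in CS against air, -0.06 in IQOS against CS and -0.00 in IQOS against air. Other hydrolases and cofactors held most of the rises, with 7 of 27. In IQOS against air, where the 10 hydrolases above were all positive, 17 of these 27 genes were positive and 10 negative. Their median there was 0.08 and none passed. At an unadjusted p under 0.05, 8 of the 27 were higher and 1 lower in that contrast, beside 9.86% and 10.5% of all genes. Acp5, an acid phosphatase of osteoclasts and macrophages, rose by 1.07 ± 0.14 in CS against air (adjusted p = 0.00693) and was lower at -0.82 in IQOS against CS (adjusted p = 0.0137). Pld3, an exonuclease, rose by 0.69 in CS against air (adjusted p = 0.00483) and was lower at -0.64 in IQOS against CS (adjusted p = 0.00443). Dnase2a, the acid nuclease, went the other way: it was higher at 0.43 in IQOS against CS (adjusted p = 0.00742), with 0.26 in IQOS against air (adjusted p = 0.0547) and -0.17 in CS against air (adjusted p = 0.105). Idua, named after its value was seen, was also higher in IQOS against CS, at 0.37 (adjusted p = 0.0284).

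In the list of other membrane proteins and transporters, 1 of 19 rose in CS against air, Laptm5, at 0.50 (adjusted p = 0.045). That share of 5.26% was close to the 5.59% of all genes. Laptm5 and Tcirg1 were lower in IQOS against CS, and Slc17a5, named after its value was seen, was higher at 0.33. Tmem175, a lysosomal ion channel, had -0.31 in CS against air (adjusted p = 0.0631), and the metal transporter Slc11a1 had 0.96 (adjusted p = 0.0644). Of 10 genes for delivery and maturation 0 passed in limma's fit in any contrast, and at an unadjusted p under 0.05 the only one was 1 gene lower in IQOS against CS. Of 16 genes that sense nutrients on the lysosome, Rragc rose by 0.26 in CS against air (adjusted p = 0.0422), while Rptor fell by 0.25 on the log2 scale (adjusted p = 0.0441). Rragb also fell (adjusted p = 0.0304), and its probe was not well above background on any CS array. Rragb was higher in IQOS against CS, and Rragc and Fnip1, the last named after its value was seen, were lower. Tfec, a relative of Tfeb, had 0.75 in CS against air (adjusted p = 0.0528). Of 18 autophagy genes, the receptor Optn rose by 0.43 (adjusted p = 0.026) and Map1lc3b by 0.31 (adjusted p = 0.0371) in CS against air. Tax1bp1 and Gabarap had 0.25 and 0.18 there and did not pass (adjusted p = 0.0608 and 0.0638).

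Markers of other cell types were read on the same arrays. For the counts at an unadjusted p under 0.05, 13.9% of all genes were higher and 17.3% lower in CS against air. These shares were 9.86% and 10.5% in IQOS against air, and 15.6% and 13.6% in IQOS against CS. Of the 12 neutrophil markers tested, 2 rose in CS against air (Il1r2 and Clec4d), beside 5.59% of all genes. At an unadjusted p under 0.05, 8 were higher and 0 lower, beside 13.9% and 17.3%, and the median change was 2.09. In IQOS against air 0 passed, with 2 higher at an unadjusted p under 0.05 and a median of 1.09. In IQOS against CS 0 passed, with 1 lower at that level and a median of -1.12. The summed signal of the 12 was 186.3 to 446.1 on the IQOS arrays, 348.7 to 774.8 on the CS arrays and 186.3 to 239.5 on the air arrays. The 4 osteoclast markers summed to 0.305 to 0.313 on the IQOS arrays, 0.284 to 0.325 on the CS arrays and 0.242 to 0.25 on the air arrays, and 0 of 4 passed (2 higher in each exposure against air and 1 higher in IQOS against CS at an unadjusted p under 0.05). Of 4 markers of proton-secreting cells, Ascl3 rose in CS against air at 0.69 (adjusted p = 0.0441), and the list summed to 3.7 to 4.77 on the IQOS arrays, 3.57 to 3.94 on the CS arrays and 3.77 to 4.87 on the air arrays. Ascl3 was also lower in IQOS against CS, at -0.74 (adjusted p = 0.0364). At an unadjusted p under 0.05, 1 marker was higher and 1 lower in CS against air, and 1 higher in IQOS against air. Of the 5 melanocyte markers 3 were tested and 0 passed (1 higher in each contrast at an unadjusted p under 0.05), and Tyrp1 was above background on no array. Of 6 alveolar type II markers 0 passed (1 lower in IQOS against air, 2 in CS against air and 2 in IQOS against CS at an unadjusted p under 0.05), with sums of 678.6 to 748.5 on the IQOS arrays, 738.4 to 786.7 on the CS arrays and 749.1 to 763.3 on the air arrays. Of 5 B cell markers Ms4a1 fell in CS against air (adjusted p = 0.046), and the sums were 8.24 to 17.6 on the IQOS arrays, 4.42 to 8.53 on the CS arrays and 10.6 to 21.8 on the air arrays. Of the 5, 4 were lower in CS against air at an unadjusted p under 0.05, beside 17.3% of all genes. In IQOS against CS 4 were higher at that level, beside 15.6%. The part of these lists in the change of any lysosome gene was not tested.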

How the data were processed

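Whole-lung RNA of 9 samples was measured on one-colour Agilent arrays. The deposited spot intensities, background-subtracted but not normalized between arrays, came from version 10.7.1.1 of Agilent's Feature Extraction software, per the file headers and the submitters' processing notes. The deposited series matrix holds, judged from its values, a linear ratio to each array's 75th percentile, with column medians of 0.114 to 0.121, no log, no centring, and larger values for brighter spots (no label states its scale); it served as an alternative.

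An array had 62976 spots, and its 59305 non-control spots stood for 56605 probes. Outlier spots were dropped and 0 spots were saturated. Spots of 1 probe were averaged as log2 and scaled by the 75th percentile of the array's non-control probes. The 37258 probes tested had values on 2 or more arrays in each group and were well above background throughout at least 1 group. Signal over background and the number of arrays, not read depth, set the precision. Probes were named by matching accessions to a RefSeq table: 32994 received 1 symbol. The 3 contrasts were fitted with limma 3.58.1 (lmFit, eBayes, all 9 arrays) in R 4.3.3, with Benjamini-Hochberg adjustment over all tested probes and a threshold of 0.05. The fit was tested on simulated data.

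The genes and the lists were chosen with earlier results of these data known. Genes with values on every array are those that passed in at least 1 contrast and Lamp1, Lamp2, Cd68, Tfeb, Tfe3 and Mitf. Other genes of the set were named after their values were seen, and from each other list up to 4 genes with the smallest p against air are named, except 1 that is not reported here.

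Samples were grouped by their labels. The alternatives were normexp background correction (offset 50, on median signals; mean signals were not used here), quantile normalization, centring on the median, the series matrix values, the mean over a gene's probes, testing without the filter on dim signal or with it required on all 9 arrays, a replicate block, array row as a covariate, an intensity trend with robust eBayes, each array left out in turn, and, chosen after seeing the data, only the 6 arrays of the slide shared by CS and air.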

Additional observations from a re-analysis of the deposited data

How the results depend on the processing

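No gene that passed changed direction under any alternative run. The count of lysosome genes past the threshold moved most. In CS against air, where it was 15, it was 16 with normexp, 19 with an intensity trend and robust estimation, 7 without the filter on dim probes, 2 with array row as a covariate and 3 to 14 with 1 array left out. In IQOS against CS, where it was 17, it was 21 with normexp and 19 with the trend (each with 1 gene, Gla, higher), 11 with quantile normalization, 3 without the filter, 0 with array row as a covariate and 3 to 14 with 1 array left out. In IQOS against air, where it was 0, it was 2 with normexp, 1 with quantile normalization, 3 with an intensity trend and robust estimation, and 0 with any 1 array left out. The filter and the left-out arrays change how many probes are tested or how many arrays enter; the row term rests on the air arrays, with air 3 the only one in row 2; the cause of the other shifts was not tested.

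The median change in CS against air was 0.13 with quantile normalization, and 0.15 to 0.17 with 1 array left out. In IQOS against CS it lay between -0.19 and -0.15, and in IQOS against air between -0.01 and 0.02, with 1 array left out. With array row as a covariate it was 0.17 in CS against air, -0.20 in IQOS against CS and 0.02 in IQOS against air. No alternative moved the median of all probes by more than 0.06.

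The replicate number as a block left 11 genes past the threshold in CS against air, 11 in IQOS against CS and 0 in IQOS against air. Over all tested probes, deviations from the group means correlated between same-numbered samples at -0.08 to 0.20. Differently numbered samples were not compared, so whether the numbers pair the samples was not tested. Within the slide shared by CS and air, 10 of the 15 genes passed. Under all 20 alternatives Cd68 and Atp6v0d2 kept their calls in CS against air, and no gene kept its call in IQOS against CS under every one. Calls kept with each array left out in turn were those of Cd68, Atp6v0d2 and Psap in CS against air, and of Cd68, Atp6v0d2 and Cd63 in IQOS against CS.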
